A study of Mus musculus with 6 samples.

Results

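Genes that mark the simple epithelium of the pancreatic duct were followed in mice with and without Cftr: the transcription factors Elf3 and Sox9, the adhesion gene Epcam, the keratin genes Krt7, Krt8, Krt18 and Krt19, and the claudin genes Cldn3, Cldn4 and Cldn7. The members were all probe sets that the array's annotation assigns to these genes. It named 12 of the 12488 probe sets, for 9 of the 10 genes (of 8251 genes named on the array), and Sox9 was not analysed here. Of the 12, 8 were bright enough to be tested, 1 for each gene other than Krt7 and Sox9.

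Total RNA from the pancreas was hybridised to 1-colour Affymetrix oligonucleotide arrays, 1 mouse per array. There were 3 control mice, of genotype gastrin+/- and CFTR+/+, aged 57, 56 and 57 days, and 3 CF mice, of genotype gastrin+/- and CFTR-/-, aged 57, 56 and 58 days. All 6 were males on a background of 95% black6 and 5% 129Sv, so that a single intact gastrin allele was common to both groups, and all had received Peptamen, a liquid peptide diet used against gut obstruction, since day 10. Replicate numbers 1, 2 and 3 stand for sample titles with no suffix, with B and with P. The label of control replicate 1 specifies the whole organ, and the labels do not say which allele removed Cftr.

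Keratins of simple epithelia are intermediate filament proteins that assemble only as pairs of a type II chain (Krt7, Krt8) and a type I chain (Krt18, Krt19). Claudins are the membrane proteins that form tight junctions and set which ions pass between cells. In the pancreas, duct cells carry these genes, and they also hold Cftr, the chloride and bicarbonate channel that hydrates the secretion. Acinar cells, which make up most of the gland, carry Krt8 and Krt18 but little Krt7 or Krt19, and they gain duct keratins when injured.

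Elf3, Krt18, Cldn4 and Epcam were separated by genotype, and Krt8, Krt19, Cldn3 and Cldn7 were not. For Elf3, Krt18, Cldn4 and Epcam the 3 CF arrays all read above the 3 control arrays, by 1.53-fold to 2.99-fold on average, while the other 4 overlapped between the groups. Of the 8 tested probe sets, 0 passed an adjusted p of 0.05 in limma (Benjamini-Hochberg over all tested probe sets), against 5 of all 7739 tested, or 0.0646%, and 4 had an unadjusted p under 0.05, all of them higher in CF, where 7.38% of all tested probe sets reached that level, 4.26% higher and 3.11% lower. Single arrays moved this count of 4: it was 2 without control replicate 3, without CF replicate 1 or without CF replicate 2, and 3 without any 1 of the other arrays. The 4 without overlap compare with 7.37% of all tested probe sets that lay higher in CF without overlap. Mean values were higher in CF for 7 of the 8, against 50.1% of all tested probe sets. The median log2 difference, CF minus control, was 0.44 over the 8 probe sets and 0.00079 over all tested ones; with no filter it was 0.23 over all 12 member probe sets. These counts and medians are descriptions: the genes had been named with results of these arrays known, and Cldn4 entered the test through its CF values. RNA came from whole tissue, so that more cells of a type and more RNA per cell cannot be told apart.

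**Figure D1:**
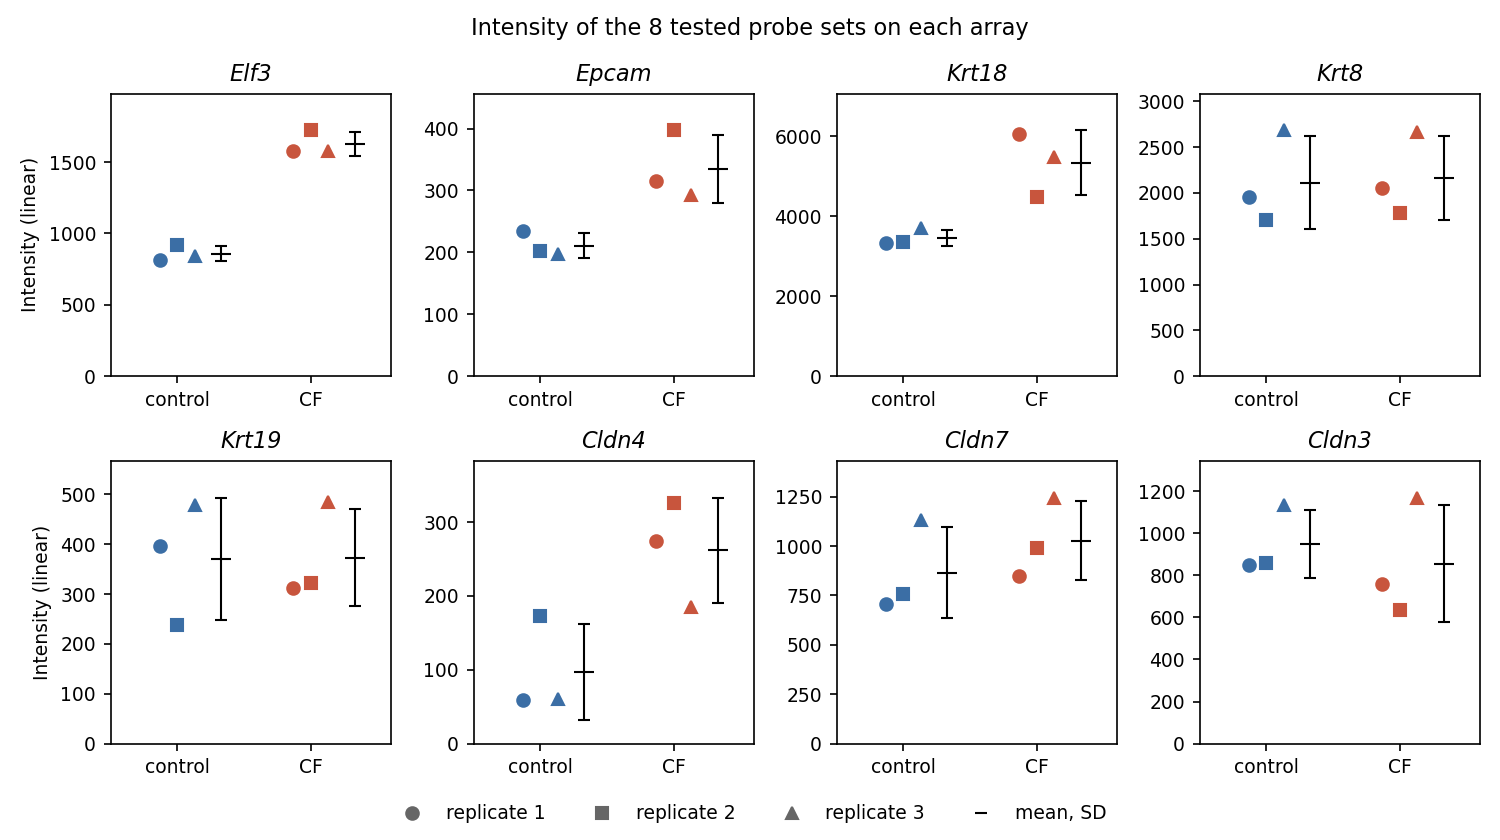
Intensity (linear scale, from 0) of the 8 tested probe sets on each of the 6 arrays, with control in blue, CF in red, a symbol for each replicate number, and the group mean and SD (n = 3) as a bar. The CF points lie above all control points for Elf3, Epcam, Krt18 and Cldn4 and mix with them for the other 4 genes.

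The sequences upstream of the 4 genes that did not overlap, and of Krt8 as the partner and neighbour of Krt18, are shown because genes that lay higher in the same arrays can be searched for shared letters. Each is the 250 bases before the annotated start in RefSeq, build GRCm38.p6, written 5′ to 3′ on the gene's own strand, and capitals mark the E-box CACCTG or its reverse complement CAGGTG, the letters bound by the Snail and ZEB repressors of epithelial genes. The windows are chr1:135258473-135258722 (minus strand) for Elf3, chr17:87635729-87635978 (plus strand) for Epcam, chr15:102027966-102028215 (plus strand) for Krt18, chr15:102004343-102004592 (minus strand) for Krt8 and chr5:134946935-134947184 (minus strand) for Cldn4.
Elf3: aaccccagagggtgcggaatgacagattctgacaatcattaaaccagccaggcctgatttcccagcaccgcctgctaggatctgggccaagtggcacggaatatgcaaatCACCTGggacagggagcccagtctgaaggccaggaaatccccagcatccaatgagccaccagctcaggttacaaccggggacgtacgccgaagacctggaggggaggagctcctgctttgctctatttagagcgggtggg
Epcam: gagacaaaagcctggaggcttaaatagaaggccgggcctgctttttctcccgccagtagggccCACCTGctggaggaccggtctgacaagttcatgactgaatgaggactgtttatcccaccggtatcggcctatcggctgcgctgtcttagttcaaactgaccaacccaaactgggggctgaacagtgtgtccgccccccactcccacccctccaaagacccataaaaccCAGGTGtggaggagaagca
Krt18: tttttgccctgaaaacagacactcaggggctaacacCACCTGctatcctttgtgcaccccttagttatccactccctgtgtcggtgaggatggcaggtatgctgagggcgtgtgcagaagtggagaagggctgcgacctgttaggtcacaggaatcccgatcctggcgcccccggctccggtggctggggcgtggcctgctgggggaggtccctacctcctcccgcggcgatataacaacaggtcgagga
Krt8: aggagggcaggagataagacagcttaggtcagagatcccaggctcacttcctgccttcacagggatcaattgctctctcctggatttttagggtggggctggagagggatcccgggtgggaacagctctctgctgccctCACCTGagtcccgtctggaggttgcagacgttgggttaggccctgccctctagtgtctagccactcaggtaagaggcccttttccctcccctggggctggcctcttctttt
Cldn4: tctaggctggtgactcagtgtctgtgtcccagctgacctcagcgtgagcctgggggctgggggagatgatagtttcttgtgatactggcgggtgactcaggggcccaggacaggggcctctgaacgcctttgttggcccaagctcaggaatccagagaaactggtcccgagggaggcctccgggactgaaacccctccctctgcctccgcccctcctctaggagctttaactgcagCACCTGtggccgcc

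The RefSeq promoter table held 8 of the 10 genes, in 9 windows because Cldn7 has 2 starts; Krt19 and Sox9 had no entry. The E-box was present for 7 of the 8 genes, all but Cldn3, with Cldn7 holding it in its second window only. By window it was present in 7 of the 9, whereas 17.2% of the 32851 windows of the same length in the table contained it. It began 140 bases before the start in Elf3, 214 in Krt18, 111 in Krt8 and 14 in Cldn4, and Epcam held it at 187 and, in reverse, at 19. Krt8, whose groups overlapped, carried it as well as its neighbour Krt18, so its presence did not separate the 2 sets of genes. The ETS core CGGAAG, the kind of site that Elf3 binds, was found in both windows of Cldn7 and in no other member, against 13.6% of all windows. The GC box GGGCGG was found in 5 of the 8 genes (Krt7, Cldn3, Cldn4, Cldn7 and Epcam) and in 5 of the 9 windows, against 32.7% of all windows. The SOX core ACAATG and the TATA box TATAAA were found in 0, against 10.7% and 12.4% of all windows. Both strands were searched for each motif, no motif overlapped another in these windows, and a match describes letters, not binding.

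Elf3, an ETS family transcription factor restricted to epithelia, had the smallest p of the members. Its control intensities were 816, 920 and 843 in replicates 1 to 3, and its CF intensities were 1578, 1723 and 1575. The lowest CF array was well above the highest control array, and the arrays within each group lay close together, at 859 ± 54.0 and 1625 ± 84.5 (mean ± SD, n = 3). The difference was 1.89-fold (log2 difference 0.92 ± 0.16 SE, 95% interval 0.55 to 1.29, limma adjusted p = 0.11), and by p it was the 24th of the 7739 tested probe sets. The 16 alternative analyses gave log2 differences of 0.88 to 0.97. Their limma adjusted p ran from 0.070 with array weights to 0.52 without CF replicate 2. Since the groups did not overlap, leaving out an array could not have reversed the direction.

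Epcam, the cell adhesion glycoprotein found on most simple epithelia, read 235, 201 and 197 on the control arrays and 315, 397 and 292 on the CF arrays, every CF array being above every control array and CF replicate 2 the highest. The difference was 1.58-fold (log2 difference 0.66 ± 0.29 SE, 95% interval 0.0045 to 1.31, limma adjusted p = 0.67), with an unadjusted limma p of 0.049 that became 0.053 with the replicate number as a block. Among the tested members, Epcam lay nearest to Elf3 in its pattern over the 6 arrays, the root mean square difference of the 2 log2 profiles, each centred on its own mean, being 0.20. Genes other than the members lay nearer to Elf3, the nearest at 0.044.

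Of the keratins, the type I gene Krt18 read higher on every CF array. It measured 3326, 3363 and 3699 in controls and 6068, 4477 and 5487 in CF. The groups were apart, and the CF arrays were spread more widely than the control arrays (3462 ± 205 against 5344 ± 805, SD, n = 3). The difference was 1.53-fold (log2 difference 0.62 ± 0.16 SE, 95% interval 0.26 to 0.98, limma adjusted p = 0.31). A second Krt18 probe set was too dim to be tested, its control values being 6.6, 7.3 and 73.4 and its CF values 72.3, 73.9 and 3.2.

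Krt8, the type II partner of Krt18, measured 1952, 1702 and 2682 in controls and 2052, 1777 and 2669 in CF. The groups overlapped fully, and arrays of the same replicate number had nearly the same intensity in both. The log2 difference was 0.04 ± 0.22 SE, and its 95% interval runs from 0.72-fold to 1.47-fold (limma adjusted p = 0.98). With the replicate number as a block the SE was 0.12 and the interval -0.25 to 0.34 on the log2 scale. The interval for Krt18 in the same fit was 0.30 to 0.94, so the intervals of the 2 genes overlapped.

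Within each array Krt18 was therefore set against Krt8, a ratio chosen after the values were seen. Relative to the control mean, log2 of the ratio was 0.03, 0.24 and -0.27 in the controls and 0.83, 0.59 and 0.30 in CF. Every CF array had the higher ratio, by 0.57 on average (1.49-fold), but 3 arrays against 3 cannot give an exact permutation p below 0.1, which is the two-sided value found (0.2 after Benjamini-Hochberg adjustment over the 2 ratios computed). The genes lie next to each other on mouse chromosome 15, with 0 protein-coding genes between them in RefSeq. At this p the ratio does not establish that the 2 genes changed unequally. It does not show that Krt8 stayed the same either.

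Krt19, the type I keratin most used as a duct marker, measured 396, 237 and 478 in controls and 312, 323 and 485 in CF. The groups overlapped, and replicate 3 was the highest in both. The log2 difference was 0.04 ± 0.34 SE (95% interval 0.61-fold to 1.75-fold, limma adjusted p = 0.99). The estimate for Krt18 lies inside this interval and those for Elf3 and Cldn4 lie outside it. The intervals of Elf3 and Cldn4 nevertheless overlap that of Krt19. The second Krt19 probe set lay under the floor of 47.6 on all 6 arrays, and Krt7, the type II keratin of ducts, read 34.5 to 69.7 in controls and 45.8 to 61.2 in CF, at or near that floor. For Krt7 and the second Krt19 probe set the arrays give little or no measure, and nothing is shown about them in either direction.

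Of the claudins, Cldn4, whose protein limits sodium passage and favours chloride, showed the largest difference, one whose size depends on how low values are treated. It measured 59.2, 172 and 60.8 in controls and 275, 325 and 185 in CF. The groups did not overlap, but control replicate 2 at 172 came close to CF replicate 3 at 185. The difference was 2.99-fold (log2 difference 1.58 ± 0.54 SE, 95% interval 0.35 to 2.81, limma adjusted p = 0.55). With the floor raised to the 40th percentile the log2 difference was 0.76, and with 50 added to each value in place of a floor it was 1.14. Leaving out control replicate 2 gave 2.09. It was higher in CF in all 15 alternatives in which it was tested, with unadjusted limma p from 0.0028 to 0.078. Leaving out an array could not have reversed this direction, since the groups did not overlap.

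Cldn3, which seals junctions, measured 850, 860 and 1134 in controls and 761, 636 and 1168 in CF. The lowest and the highest arrays were both CF. The log2 difference was -0.18 ± 0.26 SE (95% interval 0.58-fold to 1.33-fold, limma adjusted p = 0.92). A dimmer second probe set read 90.6, 45.6 and 208 in controls and 112, 77.4 and 206 in CF, was not tested, and was likewise highest in replicate 3 of each group.

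Cldn7, a claudin of the lateral membrane as well as the junction, measured 709, 755 and 1131 in controls and 851, 989 and 1244 in CF. Each CF array was above the control array of the same number, while the groups overlapped through control replicate 3. The log2 difference was 0.26 ± 0.24 SE (95% interval 0.82-fold to 1.76-fold, limma adjusted p = 0.87). The suffix f in the name of this probe set, and of the dim ones for Cldn3 and Krt19, marks probes that may match several related transcripts, and how far they do so was not measured here.

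Cldn3 and Cldn4 are direct neighbours on chromosome 5, with 0 protein-coding genes between them. Relative to the control mean, log2 of Cldn4 over Cldn3 was -0.38, 1.14 and -0.76 in the controls and 1.99, 2.49 and 0.81 in CF. The groups overlapped through control replicate 2, with a mean difference of 1.76 (exact permutation test, two-sided p = 0.2; 0.2 after adjustment over the 2 ratios). Within pairs of arrays that share a replicate number, a comparison added after seeing the data, the ratio was higher in CF in 3 of 3 pairs, by 2.38, 1.35 and 1.56. For Krt18 over Krt8 it was likewise higher in 3 of 3 pairs, by 0.80, 0.35 and 0.58. With 3 pairs the smallest two-sided p of an exact sign-flip permutation test is 0.25, the value found for both ratios (0.25 after adjustment over the 2).

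**Figure D2:**
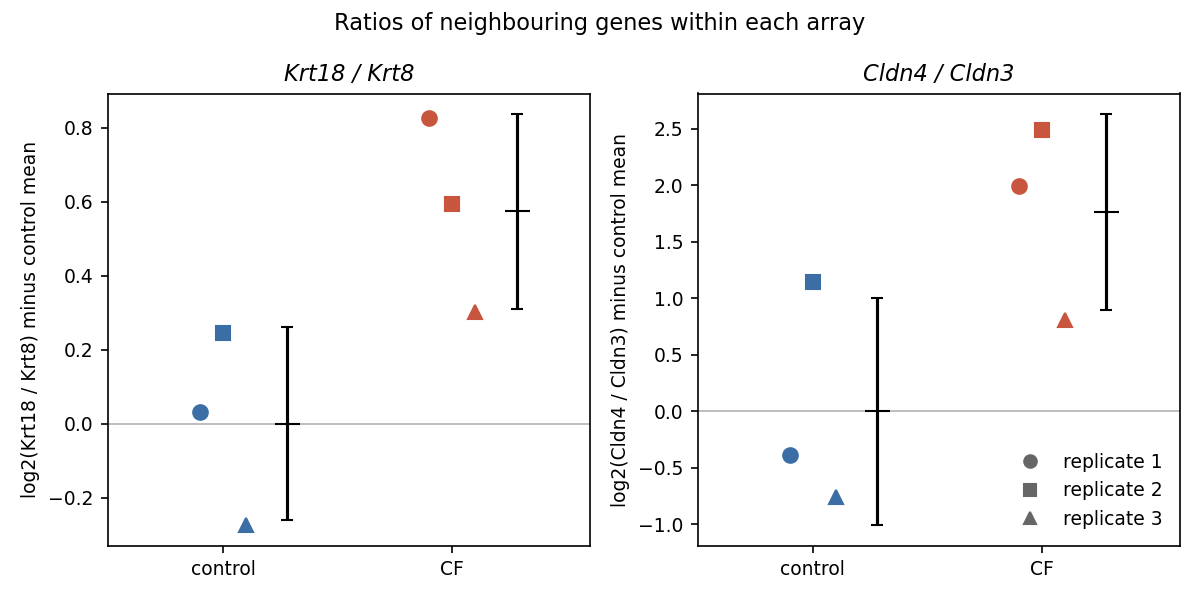
Log2 ratio of Krt18 to Krt8 (left) and of Cldn4 to Cldn3 (right) within each array, minus the mean of the 3 control arrays, with the group mean and SD as a bar. All CF ratios of Krt18 to Krt8 lie above the control ratios, by 0.57 on average, while 1 control array overlaps CF for Cldn4 to Cldn3.

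The 4 members whose groups overlapped varied with the replicate number instead. Krt8, Krt19, Cldn3 and Cldn7 were each highest in replicate 3 of both groups, exceeding the mean of replicates 1 and 2 by 0.41 to 0.64 on the log2 scale in controls and by 0.44 to 0.75 in CF. Such a pattern, noticed in the values, was present in 4 of the 8 tested member probe sets (50%) and in 1318 of all 7739 (17%). Cldn4 ran the other way, with replicate 3 at 0.73 below the mean of the others in controls and 0.69 below in CF, and Elf3 had replicate 3 within 0.07 of that mean in both groups. Among the tested members, Krt8 lay closest to Cldn3 (root mean square difference of centred log2 profiles 0.16), Krt19 (0.18) and Cldn7 (0.19). With the number as a block, the SE fell for every tested member. It went from 0.22 to 0.12 for Krt8, from 0.34 to 0.25 for Krt19, from 0.26 to 0.17 for Cldn3 and from 0.24 to 0.15 for Cldn7. For the others it went from 0.16 to 0.14 for Elf3, from 0.16 to 0.13 for Krt18, from 0.54 to 0.44 for Cldn4 and from 0.29 to 0.28 for Epcam. The labels do not say what the title suffixes stand for.

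**Figure D3:**
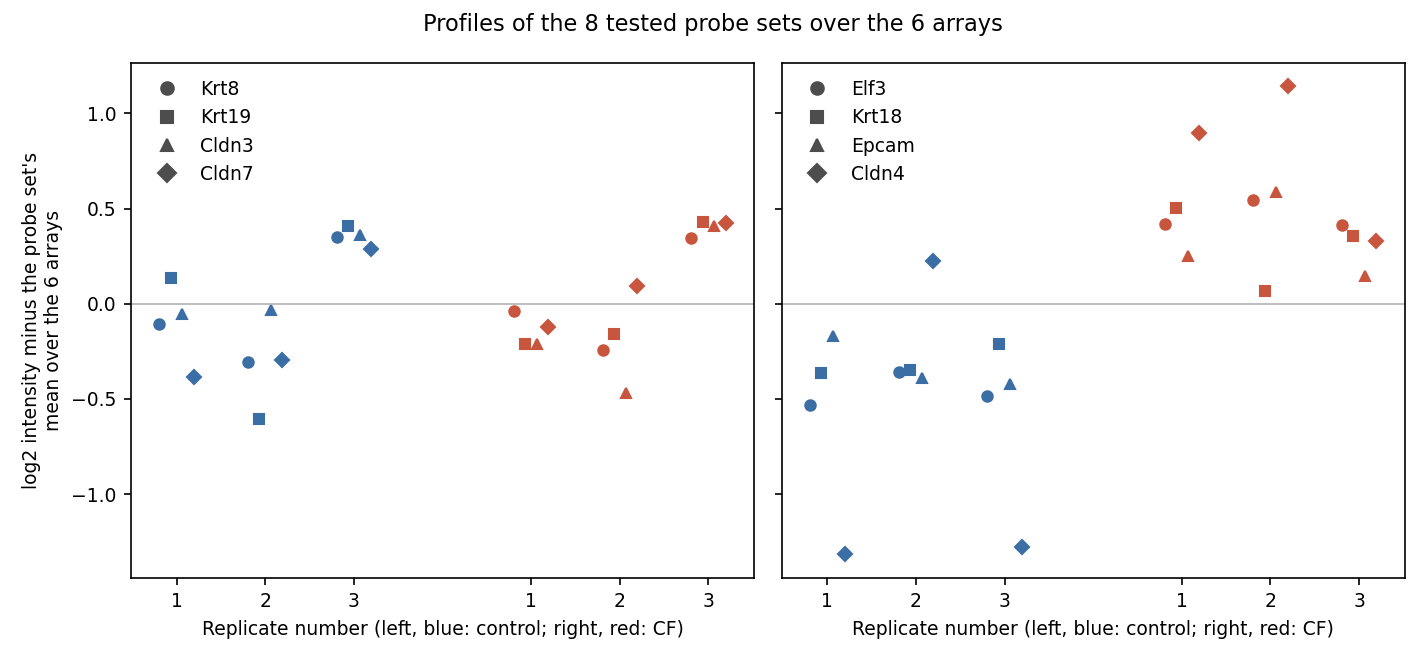
Log2 intensity of the 8 tested probe sets on each array minus the probe set's mean over the 6 arrays, for Krt8, Krt19, Cldn3 and Cldn7 (left) and Elf3, Krt18, Epcam and Cldn4 (right), with control in blue and CF in red. On the left replicate 3 is highest in both groups; on the right every CF point lies above the control points of the same gene.

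**Figure D4:**
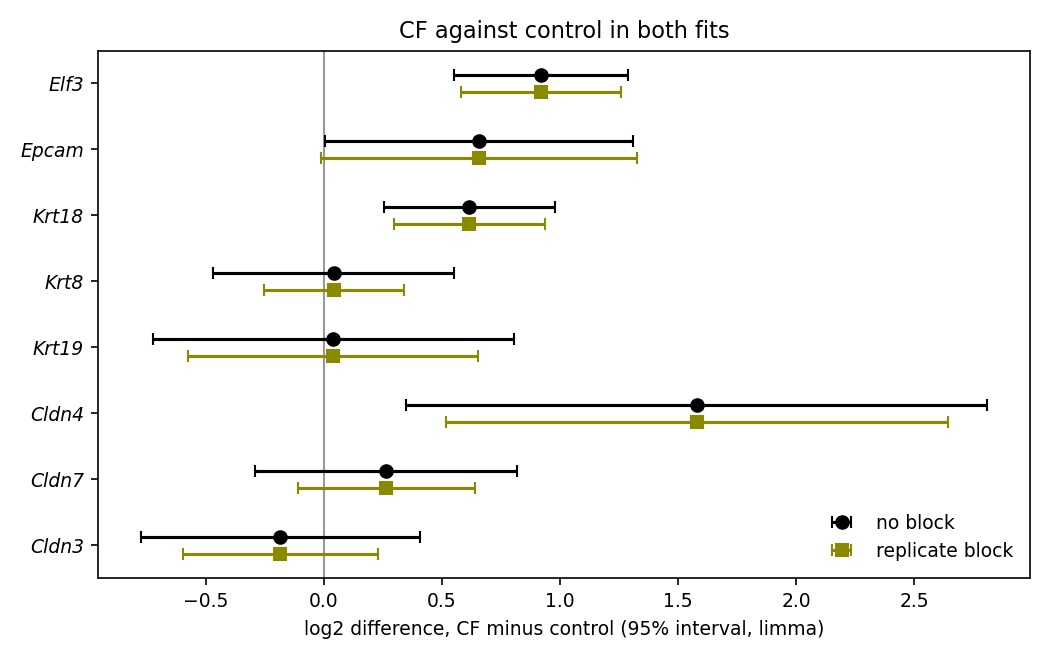
Log2 difference, CF minus control, of the 8 tested probe sets with its 95% interval from limma, without a block (circles) and with the replicate number as a block (squares). The interval without a block lies above 0 for Elf3, Krt18, Cldn4 and Epcam and spans 0 for Krt8, Krt19, Cldn3 and Cldn7; that of Epcam spans 0 with the block.

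Further genes of the duct epithelium were taken from lists drawn up with earlier results known, 1 probe set per gene. Of the 4 tested duct markers that are not members, 3 had higher means in CF (median log2 difference 0.23) and 0 passed. Onecut1, a duct and liver transcription factor, did not overlap, with 207, 227 and 247 in controls and 342, 248.5 and 275 in CF (log2 difference 0.34 ± 0.29, limma adjusted p = 0.85). The mucin gene Muc1 measured 9557 ± 1988 and 10368 ± 1332, Car2, a carbonic anhydrase of bicarbonate secreting cells, 141 to 181 and 116 to 225, and Cftr, the targeted gene, 293 ± 61.6 and 382 ± 78.0 on its 1 testable probe set, which cannot check the labels, since the labels do not tell whether it lies within the deleted sequence.

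Among the other keratins, 20 of 28 genes with a probe set were tested, and 0 passed in either direction, with 1 higher and 1 lower at an unadjusted limma p under 0.05 and a median log2 difference of -0.02. Krt20, a keratin of gut and urinary epithelium, had a control mean of 135 ± 107 and a CF mean of 348 ± 28.7 (log2 difference 1.67 ± 0.57, limma adjusted p = 0.55). Krt84, a hair keratin, differed by -0.94 ± 0.35 and Krt12, a corneal keratin, by 0.87 ± 0.43.

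Of 7 tested tight junction genes other than the members, 0 passed, 1 was higher at an unadjusted p under 0.05, and 5 had higher means in CF (median log2 difference 0.14). That 1 was Cldn11, a claudin of myelin and testis, with control values of 98.7, 88.1 and 48.9 and CF values of 304, 330 and 338 (log2 difference 2.11 ± 0.43, limma adjusted p = 0.19). It reached the test through its CF arrays only, and its second probe set, at 13 to 60.3 in controls and 20.2 to 55.3 in CF, overlapped and was too dim to test. Ocln, the junction protein occludin, differed by 0.45 ± 0.35, and F11r, the junctional adhesion molecule JAM-A, by 0.14 ± 0.15.

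Of 15 adherens junction and desmosome genes, 0 passed and 1 was higher at an unadjusted p under 0.05 (median log2 difference -0.05). This was Nectin2, an adhesion molecule of adherens junctions, whose control mean was 707 ± 156 and whose CF mean was 1129 ± 76.2, without overlap (log2 difference 0.70 ± 0.21, limma adjusted p = 0.46). Pkp1, a desmosome plaque protein, differed by -0.42 ± 0.28 and the desmosome gene Perp by 0.26 ± 0.18.

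Of 22 tested genes in the list of epithelial transcription factors, 0 passed, 0 were higher and 1 was lower at an unadjusted p under 0.05, and 15 had lower means in CF (median log2 difference -0.13). The list also holds Zeb1 and Snai2, repressors of epithelial genes with lower means in CF, so the 15 are not all factors that promote epithelial genes. Onecut1, described above, is in this list too and was higher without overlap. Klf4, a zinc finger factor of epithelial differentiation, had a control mean of 666 ± 193 and a CF mean of 331 ± 91.0 (log2 difference -0.998 ± 0.316, limma adjusted p = 0.50). Zeb1, a repressor that binds the E-box shown above, measured 377 ± 48.5 and 276 ± 36.3 (-0.45 ± 0.26, limma unadjusted p = 0.12, adjusted p = 0.76). Its groups were only just apart, with control replicate 1 at 321.2 and CF replicate 1 at 317.8. Snai2, a repressor of the Snail family, measured 605 ± 178 and 546 ± 75.9 with overlap (-0.12 ± 0.26, limma adjusted p = 0.95). Any link between these repressors and the genes that carry the E-box was not tested.

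Of 30 membrane and polarity genes of simple epithelium, 0 passed, with 2 higher and 1 lower at an unadjusted p under 0.05 (median log2 difference 0.14). Llgl2, a basolateral polarity protein, had means of 1226 ± 98.5 in controls and 1768 ± 141 in CF, without overlap (log2 difference 0.53 ± 0.16, limma adjusted p = 0.47). Erbb3, a receptor of the epidermal growth factor family, differed by 0.64 ± 0.25, and Msn, the cytoskeletal linker moesin, by -0.88 ± 0.35.

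Markers of cell types were read beside these results. Acinar markers were the brightest, with Ctrb1 at 111633 in controls where array maxima were 92020 to 135426, and 10 of 10 tested had lower means in CF (summed intensity 768601 to 1056931 in controls, 723709 to 817465 in CF). These sums overlapped, control replicate 1 at 768601 lying under CF replicates 2 and 3. Control replicate 2, the array with the outlying Gapdh ratio given below, was the highest for every tested acinar marker. Mesothelium, a covering layer that also carries Krt8, Krt18 and Krt19, had lower means in CF for 3 of 3 tested markers, with sums of 1498 to 1814 in controls and 1021 to 1314 in CF that did not overlap. The other 4 listed markers had no probe set, and the sum mostly follows Upk3b (means 1219 in controls and 945 in CF). Intestinal markers were few and dim, 2 of 9 being testable and Vil1 and Cdx2 under the floor on all arrays, with sums of 861 to 1002 and 903 to 1169. The sums were 5764 to 15153 and 4496 to 6082 for adipocytes, with lower means in CF for 6 of 6 tested, 19232 to 77748 and 22446 to 59505 for islets, and 1468 to 2155 and 1411 to 1802 for liver, whose marker Fgb was under the floor throughout. The duct list, which includes members, summed to 14282 to 19748 in controls and 17578 to 21944 in CF. This sum mostly follows its brightest genes, Muc1 (means 9557 in controls and 10368 in CF) and the member Krt18 (3462 and 5344). It is therefore no separate reading of duct content. The Gapdh 3′ to 5′ ratio, a sign of RNA integrity, was 1.45 in control replicate 2 and 0.72 to 0.87 on the other 5 arrays. The part of these shifts in the differences of Elf3, Epcam, Krt18 and Cldn4 was not tested. Without control replicate 2 their log2 differences were 0.97, 0.63, 0.60 and 2.09.

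**Figure D5:**
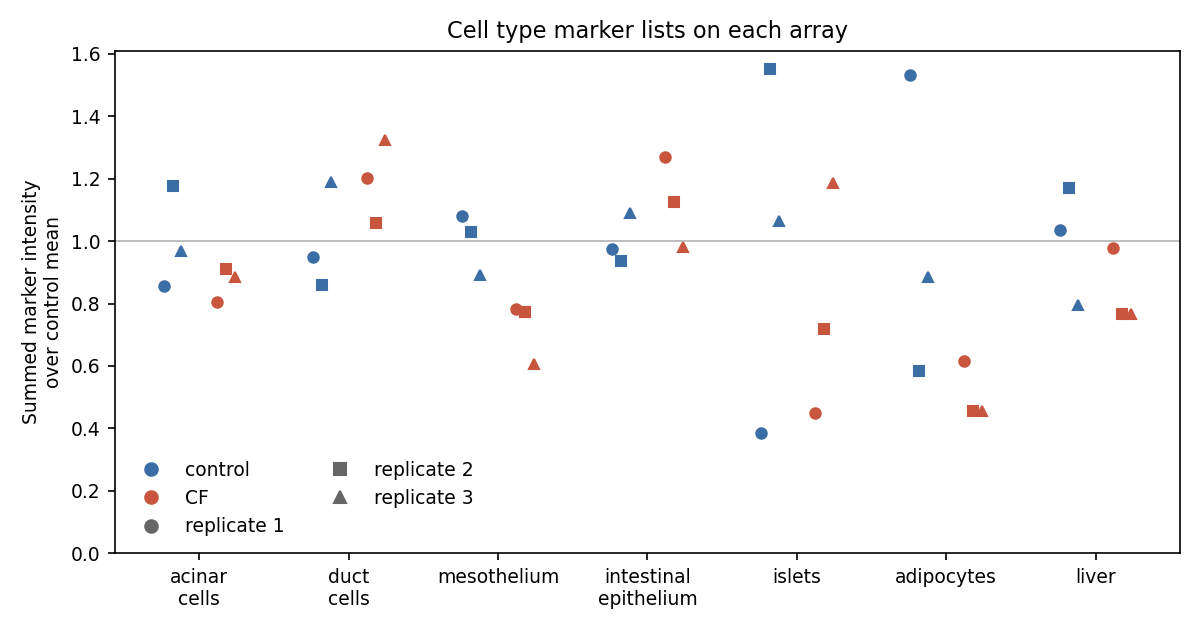
Summed intensity of the tissue's cell type markers on each array, divided by the mean of the 3 control arrays (linear axis from 0), 1 probe set per gene, with control in blue and CF in red. Mesothelial sums, of 3 markers and mostly Upk3b, are lower in CF without overlap (1021 to 1314 against 1498 to 1814). Control replicate 1 has the highest adipocyte sum (15153).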

How the data were processed

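The authors deposited intensities, linear and with 1 value for each probe set on each array; the software and scaling target behind them are not given in the sources read here, and no detection calls were used. Means without the 2% of values at each end were 500.27 to 500.3 on all arrays, so no scaling was added. Lower values were raised to a floor at the pooled 20th percentile (47.6) before log2. Leaving out 66 control probe sets, those with 3 of 6 arrays above the pooled 40th percentile (140.2) were tested, 7739 in all, with limma 3.58.1 (R 4.3.3; lmFit, eBayes with an intensity trend), two-sided, with Benjamini-Hochberg adjustment and a threshold of 0.05. Folds are on this floored scale, which can understate the fold of a gene with values under the floor. No tested member probe set had a value under it. The fit was tested on simulated data.

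Symbols came from the platform annotation: 10855 probe sets had 1 symbol, 396 several and 1237 none, and 10839 were matched by gene identifier to RefSeq (GRCm38.p6). The genes, lists and motifs were chosen with earlier results of these data known. Named genes were all members, the 3 of smallest p per context list, and for Elf3, Krt18 and Cldn4 the 3 genes of nearest profile; other list genes were named after their values were seen. Lists used the brightest probe set per gene.

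Title suffixes were taken to pair the samples, since arrays deviated from their group means together: r was 0.23 to 0.26 within numbers and -0.18 to -0.05 between them. Deviations within a group cancel out, so the negative r between numbers partly follows from the r within them. The main fit used no block. With the replicate block 10 probe sets were called in place of 5, and 0 members in either fit. Each array is 1 mouse, and 3 per group limit the precision. Alternatives covered scaling, floor, filter, variance model, array weights, the block and each array left out.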

Additional observations from a re-analysis of the deposited data

How the results depend on the processing

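Of the 8 tested member probe sets, 0 passed the threshold in any of the 16 alternatives. Elf3, Krt18, Cldn4, Epcam and Cldn7 kept their direction wherever they were tested. For all of these but Cldn7 the groups did not overlap, so leaving out an array could not have reversed the direction. The number of all probe sets past the threshold, 5, was 8 with arrays scaled to the same median, 10 with the floor at the 40th percentile, 3 with no intensity trend, 12 with array weights, 10 with the replicate block, 0 with no filter (773 at an unadjusted limma p under 0.05, more probe sets being tested) and 1 to 10 with an array left out. With the filter at the 60th percentile Cldn4 and Epcam dropped out, which left 2 members without overlap and a median log2 difference of 0.15; with an array left out the median was 0.35 to 0.54. The members at an unadjusted limma p under 0.05, 4, numbered 3 with arrays scaled to the same median, with robust variance or with the replicate block, 2 of 6 with the filter at the 60th percentile and 2 to 3 with an array left out. Small differences changed sign: Krt8 was at -0.062 with array weights, -0.00094 without control replicate 1, -0.10 without control replicate 2 and -0.12 without CF replicate 3; Krt19 at -0.15 with array weights, -0.25 without control replicate 2 and -0.16 without CF replicate 3; and Cldn3 at 0.0051 without CF replicate 2. With each array left out in turn these differences ran from -0.12 to 0.23 for Krt8, from -0.25 to 0.25 for Krt19 and from -0.43 to 0.0051 for Cldn3. The cause of the other shifts was not tested. With no detection calls, Krt7 and the second probe sets of Krt18 and Krt19, near or under the floor, set no limit on a change.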

Other observations

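Of genes other than the members, the nearest to Elf3, to Krt18 and to Cldn4 were each closer in pattern than the closest pair of members, Krt8 and Cldn3 (0.16). The far larger number of genes searched decides this comparison in advance. Likeness was the root mean square difference between log2 profiles over the 6 arrays, each centred on its own mean, so that a smaller value is a closer match, and with 7739 probe sets close matches are certain to exist. Nearest to Elf3 was Chmp4b, a subunit of the ESCRT-III complex that cuts membrane necks, at 0.044, where the median probe set was at 0.58. Chmp4b measured 1739, 1948 and 1751 in controls and 3151, 3605 and 3089 in CF (log2 difference 0.85, limma adjusted p = 0.11). Its gap between the groups and its high reading of replicate 2 follow from its being picked by likeness to Elf3 on these same arrays. The same holds for the features that the genes nearest to Krt18 and Cldn4 share with them. Next came the semaphorin receptor Plxnb2 (0.13) and the transcription factor Nhlh1 (0.13).

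Nearest to Krt18 was Srpr, a subunit of the receptor that docks ribosomes to the endoplasmic reticulum, at 0.056 (median 0.48), followed by Dnajc1 (0.11), a chaperone partner of the same membrane, and Gpam (0.11), an enzyme of glycerolipid synthesis. Srpr measured 2793, 2702 and 3084 in controls and 4524, 3594 and 4354 in CF (log2 difference 0.53, limma adjusted p = 0.43), with CF replicate 2 the lowest of its group, as for Krt18. Nearest to Cldn4 was Sprr2d, a small proline-rich protein of stressed and cornifying epithelia, at 0.11 (median 1.03), with 105, 256 and 101 in controls and 490, 579 and 279 in CF (log2 difference 1.62, limma adjusted p = 0.42). Like Cldn4 it was high in control replicate 2 and low in CF replicate 3; Sprr2 genes are similar in sequence, and which of them this probe set reads was not measured. Celf1 (0.20) and Hoxc8 (0.28) followed.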
